A study of Homo sapiens with 28 samples.

Results

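MDST8 is a human colorectal cancer (CRC) cell line with a mesenchymal character, and clone 2.2 is 1 of 5 TWIST1 knockout clones of it that were grown from single cells after electroporation of Cas9 with a guide RNA. The 3 RNA-seq libraries of clone 2.2 were compared with the equally weighted mean of clones 1.1, 3.2, 3.5 and 3.6, which have 3 libraries each. This contrast uses 15 of the 28 samples of the series, and the 3 libraries of MDST8 WT are shown beside it. All groups are MDST8 cells grown in DMEM with 10% FBS, WT carries no knockout, and each clone is labelled TWIST1 knockout and carries no other labelled change. Clone 2.2 is the only clone labelled TG2, clone 1.1 is labelled TG1 and the other 3 are labelled TG3, so whatever the code stands for cannot be told apart from the clone itself. Each line is 1 clone, so a difference describes these clones, and the p-values measure the spread between libraries, which the labels do not describe as separate cultures.

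TWIST1 is a basic helix-loop-helix transcription factor that drives epithelial-to-mesenchymal transition (EMT) in development and is switched on again in mesenchymal carcinomas. In such cells it acts beside other EMT factors, contractile and matrix genes and signals from the matrix. Cells of a cancer line are not identical to each other, and a line grown from 1 cell carries forward the expression pattern of that cell besides the edit that was selected for.

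Depth was similar across the libraries, with 17252883 to 22217009 counts in each of the 18 MDST8 libraries and 18944608 to 20517514 in those of clone 2.2. Mitochondrial transcripts took 3.21 to 3.35% of the counts in clone 2.2 and 2.38 to 4.37% over the other clones. Epithelial identity was low in every clone: 8 of 10 colorectal epithelium markers stayed under 1 CPM (a normalised read count, scaled by library size) in all 18 libraries, and CDH1, CDX2 and VIL1 had no counts in clone 2.2. KRT8 and KRT18 were the 2 epithelial markers that passed the filter. Fibroblast markers, of which 7 of 10 passed, summed to 870 to 906 CPM in clone 2.2, 802 to 1731 CPM in the other clones and 875 to 900 CPM in WT. None of the 7 endothelial or 7 leukocyte markers passed, and the leukocyte markers summed to at most 0.927 CPM in clone 2.2 and 0.848 CPM in the other clones. The 7 melanocyte and neural crest markers summed to 20.1 to 22.8 CPM in clone 2.2, 31.6 to 98.0 CPM in the other clones and 14.8 to 16.1 CPM in WT, with MITF and PMEL, the 2 that were tested, both called lower. Among fibroblast markers DCN and THY1 were called lower and LUM higher, and none of them stood apart from every other clone. DCN averaged 0.222 CPM in clone 2.2, 0.283 CPM in clone 3.6 and 0.443 CPM in clone 3.5. THY1 averaged 99.5 CPM in clone 2.2 and 85.8 CPM in clone 3.2. The 9 neural and neuroendocrine markers summed to 428 to 438 CPM in clone 2.2, 456 to 720 CPM in the other clones and 377 to 381 CPM in WT. Of the 4 tested, only NCAM1 was called, higher. The part of these marker differences in the results below was not tested. In bulk RNA, fewer cells of a kind and less RNA per cell cannot be told apart.

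Clone 2.2 lay farthest from the other clones. On the first dimension of a multidimensional scaling plot, which held 40.9% of the variance, its libraries sat between 1.41 and 1.45, beyond WT at 0.85 to 0.90 and on the opposite side from clone 3.6. The root mean square log2 difference between clone 2.2 and another clone ran from 0.495 with clone 3.5 to 0.698 with clone 3.6, and it was 0.522 with WT. The other clones differed from WT by 0.551 (clone 3.5) to 0.697 (clone 3.6), so on this measure clone 2.2 was the clone nearest to WT. The other clones differed from each other by 0.301 to 0.525 on the same measure, while libraries of clone 2.2 differed from each other by at most 0.237.

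**Figure D1:**
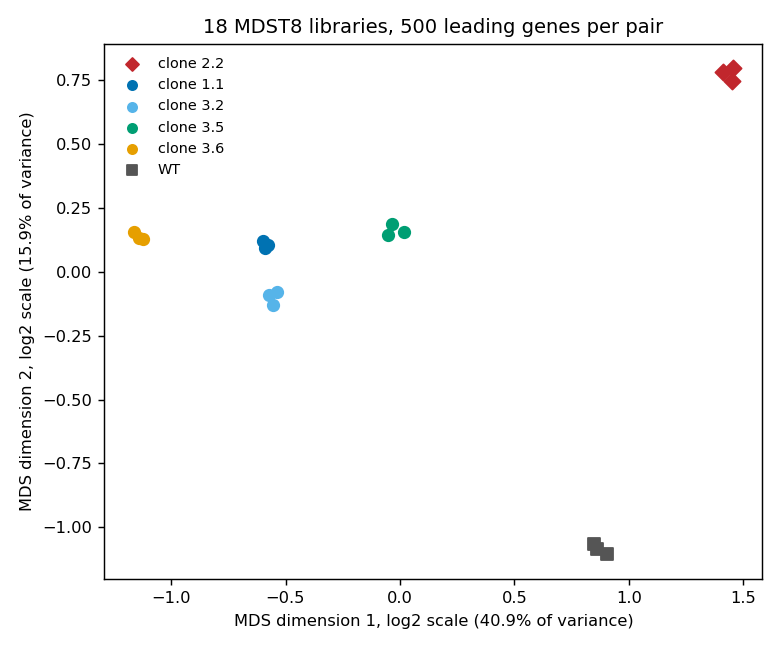
Multidimensional scaling of the 18 MDST8 libraries, with dimension 1 (40.9% of variance) across and dimension 2 (15.9%) up, both in log2 units over the 500 leading genes of each pair. Each point is 1 library, and the 3 red diamonds of clone 2.2 sit at 1.41 to 1.45 on dimension 1, apart from every other group.

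Of 13706 genes tested with the edgeR quasi-likelihood test, 567 (4.14%) were called higher and 1022 (7.46%) lower in clone 2.2, where a call needed a log2 fold change beyond 0.58 and an adjusted p below 0.05. A stricter group stood apart from every other clone, meaning called and also beyond 0.58 in the same direction against each clone on its own. It held 144 genes higher (1.05%) and 436 lower (3.18%) in clone 2.2, of which 120 and 371 were protein-coding. Judged by libraries alone, the 3 clone 2.2 values lay above all 12 values of the other clones for 1573 genes (11.5%) and below all 12 for 1629 genes (11.9%). They lay above all 15 other libraries, WT included, for 718 genes (5.24%) and below all 15 for 815 genes (5.95%). Clone 3.5 was the nearest comparator: 866 of the 1589 called genes were beyond 0.58 against it, compared with 1440 against clone 3.6. Without clone 3.5 the group that stood apart grew to 353 higher and 751 lower.

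Taking the clone as the unit, 1 clone against 4, left 4 genes called higher (0.0292%) and 14 lower (0.102%), and 1592 genes had an unadjusted p under 0.05 in that edgeR fit. The genes given here, named after their values were seen, differed most relative to the spread among the 4 other clones. CLDN11, HACD4, LCP1 and SPTBN5 were the higher ones. The lower ones included SYK, MUC15, SOX1, SLC16A9, ASB9, SHROOM4, ANO3, CPT1C, RFPL4AL1, KCNAB2, SEMA6B, ILDR2 and ATP11A. LCP1, the actin-bundling protein L-plastin, measured 57.9, 64.1 and 58.8 CPM in clone 2.2, between 9.57 and 16.5 CPM in the other clones and 84.4 to 89.1 CPM in WT. The semaphorin SEMA6B showed the reverse pattern, with 9.63, 11.8 and 10.3 CPM in clone 2.2, between 41.7 and 56.2 CPM in the other clones and 12.4 to 16.7 CPM in WT.

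The edited gene itself was lower in clone 2.2. TWIST1, on chromosome 7, measured 28.5, 29.0 and 30.5 CPM in clone 2.2, between 34.7 and 57.5 CPM in the 12 libraries of the other clones, and 45.1, 52.5 and 40.5 CPM in WT. The clone 2.2 libraries were below all 15 others. Its log2 fold change of -0.57 ± 0.06 (SE, n = 3 against 12 libraries; edgeR adjusted p = 3.65e-10) fell just short of the size needed for a call. The 20 tested genes nearest to TWIST1 on the chromosome had a median log2 fold change of -0.25, and 15 of them were negative. Counts over the gene say nothing about the edit, since a short insertion or deletion leaves its transcript countable.

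Of 24 mesenchymal and matrix genes tested, 2 were called higher (TAGLN and THBS1, 8.33% against 4.14% of all genes) and none lower, with a median log2 fold change of 0.16 and 17 positive. The list of tensins and actin cytoskeleton genes had 3 of 21 called higher (MYL9, TPM1 and CALD1) and 3 lower (TNS1, TNS3 and PALLD), 14.3% each way against 4.14% and 7.46%. MYL9, the regulatory light chain of smooth muscle and non-muscle myosin, measured 61.5, 63.3 and 59.0 CPM in clone 2.2, between 1.08 and 4.79 CPM in the other clones and 21.9 to 24.5 CPM in WT. The other clones were all below WT and clone 2.2 was above it, with no overlap, and the log2 fold change was 4.80 ± 0.07 (SE; edgeR adjusted p = 9.35e-34). TAGLN, the actin-binding protein transgelin, measured 16.6, 14.7 and 16.5 CPM against 1.88 to 9.04 CPM in the other clones and 9.65 to 11.5 CPM in WT. TPM1, a tropomyosin that lies along actin filaments, measured 503, 512 and 499 CPM against 84.5 to 245 CPM in the other clones, and WT at 212 to 238 CPM was within their range. THBS1, the matricellular protein thrombospondin-1, measured 1560, 1538 and 1644 CPM in clone 2.2, between 167 and 579 CPM in the other clones and 857 to 1000 CPM in WT. These 4 genes all stood apart from every other clone.

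The genes used as readouts of the coactivator YAP and its TEAD partners were higher in part. Of 24 tested, 4 were called higher and none lower, against 4.14% and 7.46% of all genes, and 19 of 24 had a positive log2 fold change, where 7017 of all 13706 did. Their median was 0.12, against 0.01 over all genes. CCN2, a secreted matricellular protein, measured 297, 291 and 295 CPM in clone 2.2 and 81.9 to 142 CPM in the other clones, with WT slightly above clone 2.2 at 318 to 333 CPM. Its relative CCN1 measured 228, 220 and 222 CPM in clone 2.2, between 42.8 and 150 CPM in the other clones and 218 to 226 CPM in WT. For both genes clone 2.2 was at or near the WT level and the other clones were below it. ANKRD1, a nuclear ankyrin-repeat protein, measured 3.35, 4.14 and 3.28 CPM in clone 2.2, at most 1.32 CPM in the other clones and 3.57 to 4.42 CPM in WT. IGFBP3 was the fourth called member, with a log2 fold change of 0.65 ± 0.13 (SE), and it did not stand apart from every clone.

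Tensins tie integrins at focal adhesions to actin. TNS1 measured 0.103, 0.243 and 0.529 CPM in clone 2.2, between 2.82 and 13.9 CPM in the other clones and 8.29 to 11.02 CPM in WT, a log2 fold change of -4.35 ± 0.26 (SE; edgeR adjusted p = 2.74e-16). TNS3, another tensin, measured 348, 352 and 350 CPM in clone 2.2, between 548 and 1053 CPM in the other clones and 404 to 429 CPM in WT. Both were below all 15 other libraries, but the other clones were above WT for TNS3, while for TNS1 they lay on either side of it. Among integrins and laminins, receptors and ligands of the basement membrane, 6 of 21 tested were called lower (28.6% against 7.46% of all genes) and none higher. Of these 6, only LAMA5 stood apart from every other clone. ITGB3 in clone 2.2 overlapped clone 3.5. ITGA7 measured 1.55 to 2.12 CPM in clone 2.2, 9.88 to 11.48 CPM in clone 3.6 and 1.42 to 3.53 CPM in the remaining clones. LAMA5, a laminin chain, carried the largest change: it measured 1.597, 1.656 and 1.799 CPM in clone 2.2, between 5.76 and 31.4 CPM in the other clones and 4.64 to 5.79 CPM in WT. The median of that list was -0.01, close to the 0.01 over all genes.

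By fold change, the 12 protein-coding genes furthest above every other clone, at 5 CPM or more, were CLDN11, HACD4, GIMAP4, MYL9, PTPRN, CXCR4, ZNF677, CORO6, TMPRSS15, CLEC11A, FGF1 and EDN1. Among those furthest below were the 11 genes SYK, MUC15, B3GAT1, FBLN1, SHROOM4, PDZRN3, SPATA18, SEL1L3, LSAMP, XYLT1 and TNS1. The highest adjusted p among these 23 genes was 2.78e-16 (edgeR), and all 23 gave an exact two-sided permutation p of 0.0044 over 3 against 12 libraries, the smallest that the 455 assignments allow. These genes were chosen for standing apart, so the separation of libraries behind that p follows from the choice and is a description. The 12 libraries also come from 4 clones and are not separate samples of a group.

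**Figure D2:**
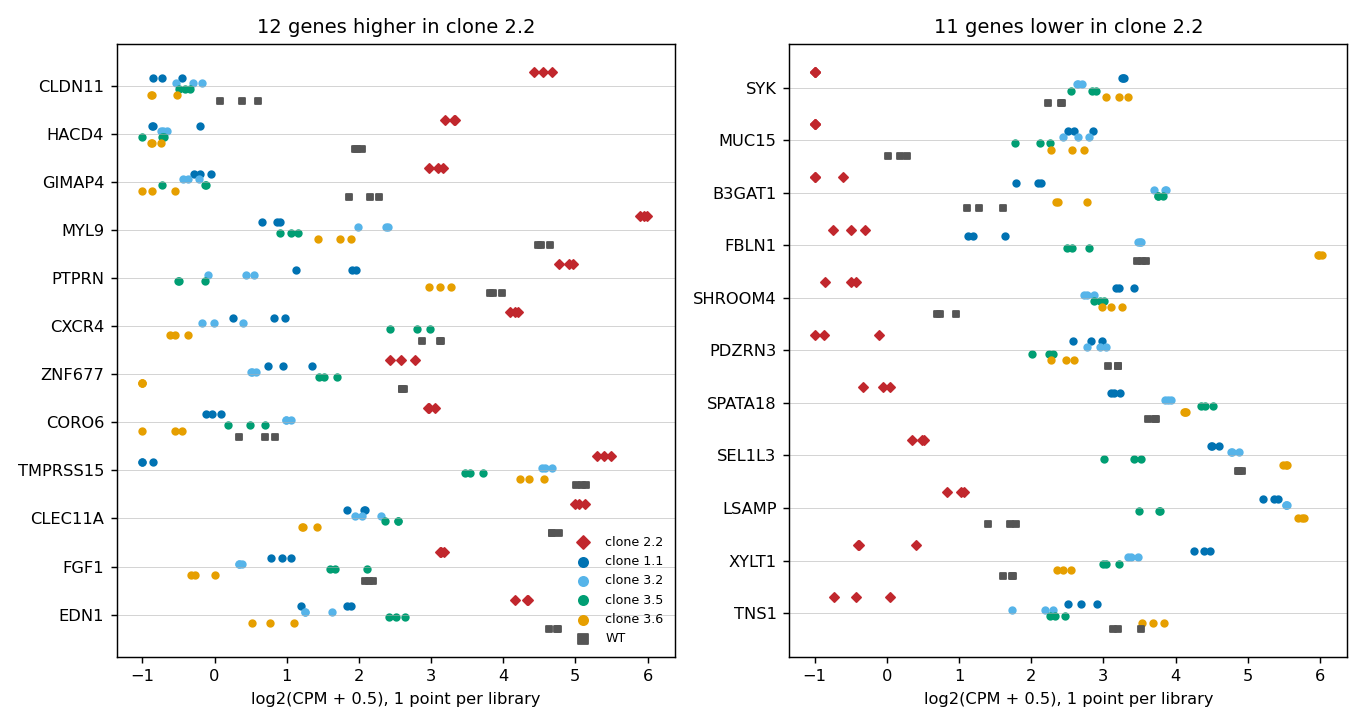
Levels of the 12 genes furthest above (left) and 11 of those furthest below (right) every other clone, as log2(CPM + 0.5) across, with 1 point for each library, coloured by clone and WT. Red diamonds of clone 2.2 do not overlap the circles of the other clones in any row; grey squares of WT lie between them in many rows, on the clone 2.2 side for EDN1 and among or beyond the other clones for TNS1 and PDZRN3.

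CLDN11, a claudin of tight junctions, measured 25.1, 20.99 and 22.9 CPM in clone 2.2, at most 0.386 CPM in the other clones and 0.559 to 1.02 CPM in WT, a log2 fold change of 6.98 ± 0.15 (SE). HACD4, an enzyme of long-chain fatty acid elongation, measured 9.58, 8.67 and 9.47 CPM, at most 0.368 CPM in the other clones and 3.35 to 3.61 CPM in WT. GIMAP4, a GTPase best known from lymphocytes, measured 7.37, 8.47 and 8.04 CPM, at most 0.469 CPM in the other clones and 3.15 to 4.37 CPM in WT. All 3 genes were near absent from the 4 other clones, and only CLDN11 was also low in WT. TMPRSS15, the intestinal protease enteropeptidase, differed in kind: it measured 41.7, 44.6 and 38.8 CPM in clone 2.2, and clones 3.2, 3.5 and 3.6 held 10.6 to 24.9 CPM, while clone 1.1 held 0 or 0.0526 CPM. Its log2 fold change of 3.63 was set largely by clone 1.1, and against clone 3.2 the fitted value was 0.82. ZNF677, a zinc finger gene with no counts in clone 3.6, measured 4.89, 6.38 and 5.50 CPM in clone 2.2, 0.913 to 2.73 CPM in clones 1.1, 3.2 and 3.5, and 5.54 to 5.64 CPM in WT.

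The rest of the 12 higher genes included CXCR4, EDN1, FGF1, CLEC11A, PTPRN and CORO6. CXCR4, the receptor of the chemokine CXCL12, measured 16.6, 17.97 and 17.5 CPM in clone 2.2, 4.92 to 7.44 CPM in clone 3.5, at most 1.47 CPM in clones 1.1, 3.2 and 3.6, and 6.86 to 8.27 CPM in WT. EDN1, the vasoconstrictor endothelin-1, measured 19.6, 19.8 and 17.5 CPM in clone 2.2 and 0.933 to 5.76 CPM in the other clones, below WT at 24.3 to 26.7 CPM. FGF1, a fibroblast growth factor, measured 8.55, 8.28 and 8.25 CPM, 0.299 to 3.81 CPM in the other clones and 3.76 to 4.06 CPM in WT. Clone 3.5 was the nearest of the other clones for each of these 3 genes. CLEC11A, a secreted lectin-like growth factor, measured 31.5, 32.8 and 34.6 CPM in clone 2.2, 1.82 to 5.35 CPM in the other clones and 25.01 to 26.7 CPM in WT. PTPRN, a phosphatase-like protein of dense-core vesicles, measured 30.6, 29.5 and 26.9 CPM in clone 2.2 and ranged from 0.202 CPM in clone 3.5 to 9.20 CPM in clone 3.6, with WT at 13.6 to 15.4 CPM. CORO6, a coronin of the actin cytoskeleton, measured 7.32, 7.79 and 7.25 CPM in clone 2.2 and at most 1.59 CPM in any other library, WT included. In the list of growth factors and their receptors, 4 of 20 tested were called higher (EGF, NRG1, EREG and FGFR4) and 2 lower (BTC and ERBB3), against 4.14% and 7.46% of all genes. EGF measured 11.9, 10.3 and 9.63 CPM in clone 2.2, 1.35 to 4.23 CPM in the other clones and 5.08 to 6.60 CPM in WT.

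Several genes of the low group were silent in clone 2.2. SYK, a tyrosine kinase, had no count in any clone 2.2 library and measured 5.34 to 9.61 CPM in the other clones and 4.21 to 4.88 CPM in WT. MUC15, a membrane mucin, had none either and measured 2.91 to 6.74 CPM in the other clones and 0.508 to 0.711 CPM in WT. Set against a floor of 3 counts per library, a mean of 0.153 CPM, SYK was at least 49.1-fold and MUC15 at least 33.5-fold lower in clone 2.2. B3GAT1, which makes the HNK-1 carbohydrate, was at 0, 0 and 0.159 CPM in clone 2.2, 2.95 to 14.1 CPM in the other clones and 1.65 to 2.54 CPM in WT. SHROOM4, a regulator of actin and cell shape, measured 0.0515, 0.243 and 0.212 CPM in clone 2.2, 6.15 to 10.3 CPM in the other clones and 1.12 to 1.44 CPM in WT. In these 4 genes WT lay between clone 2.2 and the other clones in every library. Mean CPM in clone 2.2 was under 0.5 for 76 of the 436 genes that were lower than in every other clone. The mean of the other clones was under 0.5 CPM for 4 of the 144 higher genes.

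The rest of the 11 lower genes kept low but mostly measurable levels in clone 2.2. FBLN1, the matrix glycoprotein fibulin-1, measured 0.309, 0.0974 and 0.212 CPM in clone 2.2, from 1.69 CPM in clone 1.1 to 64.8 CPM in clone 3.6, and 10.6 to 11.6 CPM in WT. LSAMP, an adhesion protein of the immunoglobulin superfamily, measured 1.29, 1.61 and 1.53 CPM in clone 2.2, 10.8 to 54.6 CPM in the other clones and 2.13 to 2.95 CPM in WT. XYLT1, which starts glycosaminoglycan chains on proteoglycans, measured 0.258, 0.828 and 0.265 CPM in clone 2.2, 4.601 to 21.8 CPM in the other clones and 2.54 to 2.85 CPM in WT. FBLN1 differed by far more among the other clones than LSAMP or XYLT1 did. SPATA18, a p53-induced gene of mitochondrial quality control, measured 0.464, 0.292 and 0.529 CPM in clone 2.2, 8.09 to 22.3 CPM in the other clones and 11.8 to 12.8 CPM in WT. SEL1L3 measured 0.927, 0.779 and 0.899 CPM in clone 2.2, 7.52 to 46.3 CPM in the other clones and 28.7 to 29.8 CPM in WT. PDZRN3, a ubiquitin ligase with PDZ domains, measured 0, 0.0487 and 0.423 CPM in clone 2.2, 3.54 to 7.74 CPM in the other clones and 7.83 to 8.74 CPM in WT. Each of these last 3 genes was lower in clone 2.2 than in all 15 other libraries; WT lay within the range of the other clones for SPATA18 and SEL1L3 and above it for PDZRN3.

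The list of epithelial junction and splicing genes held 8 tested members, of which 2 were called higher (CDH3 and PKP2) and 4 lower (DSP, JUP, PKP3 and CGN). These are 25% and 50%, against 4.14% and 7.46% of all genes, but a list of 8 gives coarse shares. DSP, the desmosomal plaque protein desmoplakin, measured 3.25, 3.12 and 2.80 CPM in clone 2.2 and 3.09 to 4.53 CPM in WT, but 7.74 to 33.6 CPM in the other clones. JUP, plakoglobin, divided the clones differently, with 0.341 to 0.927 CPM in clone 2.2, 21.5 to 36.3 CPM in clones 1.1 and 3.5 and 0.327 to 1.12 CPM in clones 3.2 and 3.6. An exact permutation test over the 3 and 12 libraries gave p = 0.189 for JUP, although the edgeR adjusted p was 5.28e-13, because that fit takes its error from within clones. CDH3 likewise ran from 0 to 16.4 CPM over the other clones, with 5.50 CPM on average in clone 2.2.

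SPON2, a secreted matricellular protein and the main target gene in the study of this line, was low in every clone. It lies on chromosome 4, whose genes had a median log2 fold change of -0.32 in this contrast. It measured 0.464, 0.195 and 0.582 CPM in clone 2.2, 0.316 to 0.798 CPM in clone 1.1, 1.88 to 5.13 CPM in clones 3.2, 3.5 and 3.6, and 6.24 to 8.79 CPM in WT. The log2 fold change was -2.28 ± 0.29 (SE; edgeR adjusted p = 2.06e-08; exact permutation p = 0.0176 over 3 and 12 libraries), and clone 2.2 overlapped clone 1.1. The permutation handles libraries of the same clone as separate samples, which they are not, so its p does not measure a difference between clones. Of the 27 target genes that the study named, 1 was called higher (TNFRSF21, 3.7%) and 5 lower (TNS1, KCNAB2, SPON2, PODXL2 and RFX2, 18.5%) in clone 2.2. Over all genes the shares were 4.14% and 7.46%, so the 1 higher gene is no more than the background. The study chose that list from RNA-seq of TWIST1 knockout and knockdown cells together with ChIP-seq, so it is not independent of these data. Its supplement shows the MDST8 comparison as clone 3.6 against WT, and clone 3.6 is among the comparators here. The study reported TNFRSF21, KCNAB2 and PODXL2 as up after TWIST1 loss, and TNS1, SPON2 and RFX2 as down. By group means, clone 2.2 was nearer to WT than the mean of the other clones was for KCNAB2 and PODXL2. It was farther from WT for TNFRSF21, TNS1, SPON2 and RFX2. KCNAB2, a potassium channel subunit, measured 2.27, 3.21 and 2.43 CPM in clone 2.2 and 1.22 to 1.78 CPM in WT, against 10.4 to 16.7 CPM in the other clones.

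Cholesterol and fatty acid synthesis was the list with the largest share called in 1 direction among those with 12 or more tested members. Of 26 tested genes, 9 were called higher and none lower (34.6% against 4.14% of all genes), 6 of them stood apart from every other clone, and the median log2 fold change was 0.34. INSIG1, which holds the sterol sensor SCAP in the endoplasmic reticulum, measured 502, 522 and 512 CPM in clone 2.2, 220 to 324 CPM in the other clones and 530 to 551 CPM in WT. HMGCS1, the synthase that feeds HMG-CoA reductase, measured 201, 212 and 202 CPM in clone 2.2, 95.4 to 124 CPM in the other clones and 215 to 219 CPM in WT. Both genes were close to WT in clone 2.2 and lower in the other clones. CYP51A1 and MVD, enzymes later and earlier in the pathway, had log2 fold changes of 0.97 ± 0.07 and 0.74 ± 0.04 (SE). The other 5 called members ran from 0.58 to 0.73.

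Other lists moved in part or in both directions. In lysophospholipid signalling, 2 of 14 tested were called higher (14.3%) and 3 lower (21.4%), against 4.14% and 7.46% of all genes. S1PR1, a receptor of sphingosine-1-phosphate, measured 24.8, 25.9 and 29.2 CPM in clone 2.2, 5.48 to 16.3 CPM in the other clones and 35.2 to 35.4 CPM in WT. The lower ones were LPAR4, PLPP3 and LPAR6. S1PR3 was called higher through clone 3.6 alone, since without that clone its log2 fold change was -0.15. NF-kB targets and chemokines had 4 of 20 called lower (CXCL3, CXCL8, CXCL1 and IL32) and 2 higher (TNFAIP2 and CCL28), against 7.46% and 4.14% of all genes, with a median of -0.39. CXCL1, CXCL3 and CXCL8 lie close together on chromosome 4, whose genes had a median log2 fold change of -0.32. Among MAPK feedback genes, which read out ERK activity, 3 of 19 were called lower (FOS, EGR1 and ETV1), none higher, and 17 of 19 were negative, with a median of -0.37 (3 of 19 is 15.8%, against 7.46%). EGR1 measured 12.9 to 31.3 CPM in clone 2.2, 10.4 to 31.1 CPM in clone 1.1 and 103.5 to 111.5 CPM in clone 3.6. FOS in clone 2.2 overlapped clones 1.1 and 3.5. ETV1 overlapped no other clone, with 88.4 to 96.0 CPM in clone 2.2 and 124.9 to 167.6 CPM in the others. Among 6 WNT ligands tested, WNT10B and WNT6 were called lower (33.3%, against 7.46% of all genes) and stood apart from every other clone. WNT7B was called higher, but it measured 2.16 to 3.56 CPM in clone 2.2, 4.34 to 6.08 CPM in clone 3.6 and 0.317 to 0.470 CPM in clone 3.5, so its call rests on clone 3.5. Interferon-stimulated genes had 2 of 26 higher and 4 lower (7.69% and 15.4%, against 4.14% and 7.46%). MHC class I genes had none of 17 called in either direction by edgeR. Mitosis and DNA replication genes had 1 of 31 called lower, the kinetochore motor CENPE (3.23%, under the 7.46% of all genes). Of the EMT transcription factors, 2 of 8 were called lower, PRRX1 and FOXC2 (25%, against 7.46% of all genes), and none higher. Neither PRRX1 nor FOXC2 stood apart from every other clone. FOXC2 measured 1.43 to 2.39 CPM in clone 2.2, which overlapped clones 3.2 and 3.6, and 7.29 to 8.99 CPM in clone 3.5 (exact permutation p = 0.0527 over 3 and 12 libraries). PRRX1 measured 7.50 to 8.52 CPM in clone 2.2, 40.5 to 42.3 CPM in clone 3.6 and 9.23 to 16.3 CPM in the other 3 clones. MMP1, an interstitial collagenase, measured 63.2, 63.3 and 57.8 CPM in clone 2.2, 97.2 to 264 CPM in the other clones and 96.8 to 119 CPM in WT.

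**Figure D3:**
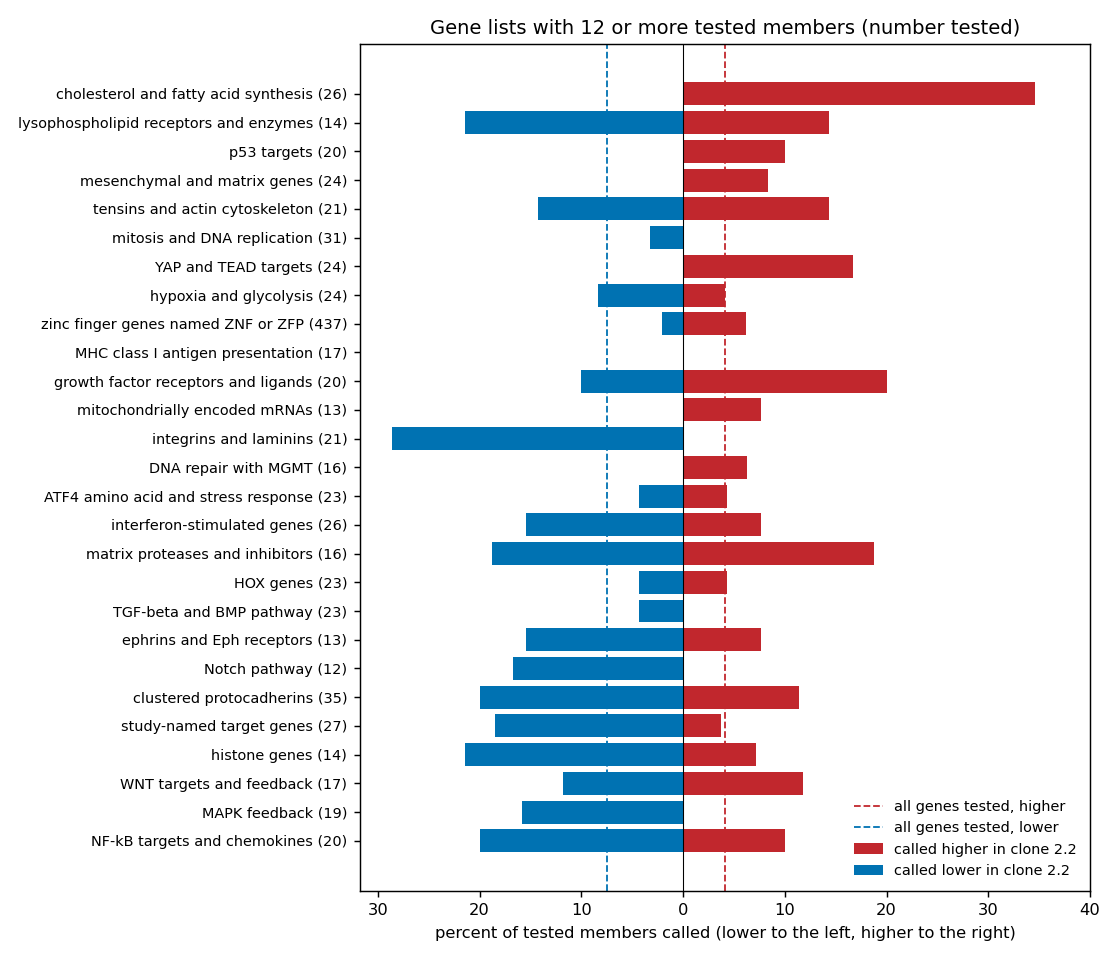
Percent of tested members called higher (red, to the right) or lower (blue, to the left) in clone 2.2 for each gene list with 12 or more tested members, sorted by median log2 fold change, with the number tested in brackets. Dashed lines mark 4.14% and 7.46%, the shares of all 13706 genes; the bar of cholesterol and fatty acid synthesis reaches 34.6% on the right and that of integrins and laminins 28.6% on the left. Of the integrins and laminins called lower, only LAMA5 stood apart from every other clone.

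WT gave a reference that the contrast did not use. The genes counted here were chosen for the gap between clone 2.2 and the other clones, so WT lying inside that gap is partly built in. The same counts were not made over all genes tested, so these are a description. Of the 144 genes that were higher than in every other clone, mean WT expression lay between clone 2.2 and the mean of the other clones for 91, beyond clone 2.2 for 35 and beyond the other clones for 18. For the 436 lower genes the corresponding counts were 270, 97 and 69. WT was closer to clone 2.2 than to the mean of the other clones for 90 of the 144 and for 251 of the 436. In 34 of the higher and 84 of the lower genes, all 3 clone 2.2 libraries lay on one side of all 3 WT libraries and all 12 libraries of the other clones on the other side. The genes above show 3 such arrangements. Clone 2.2 was closer to WT than any other clone for EDN1, CCN1, CCN2, INSIG1, DSP and KCNAB2. WT lay within the range of the other clones, with clone 2.2 outside it, for SPATA18, FBLN1, SEL1L3 and TPM1. Clone 2.2 and the other clones lay on opposite sides of WT for MYL9, THBS1 and LSAMP.

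The changes were not spread evenly over the chromosomes. Over 296 windows of 10 Mb with 10 or more tested genes, the median log2 fold change was 0.02, and the middle 90% of windows ran from -0.30 to 0.13. Of 35 windows below -0.2, 16 were on chromosome 4 (of its 18), 9 on chromosome 11 (of 14) and 5 on chromosome 7 (of 16), and 4 of the rest were on chromosome 13. Blocks were then chosen from these medians, so their values are a description with no test. The DNA of these clones was not analysed here, so a regional shift in RNA and a change in the number of copies of a segment cannot be told apart.

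**Figure D4:**
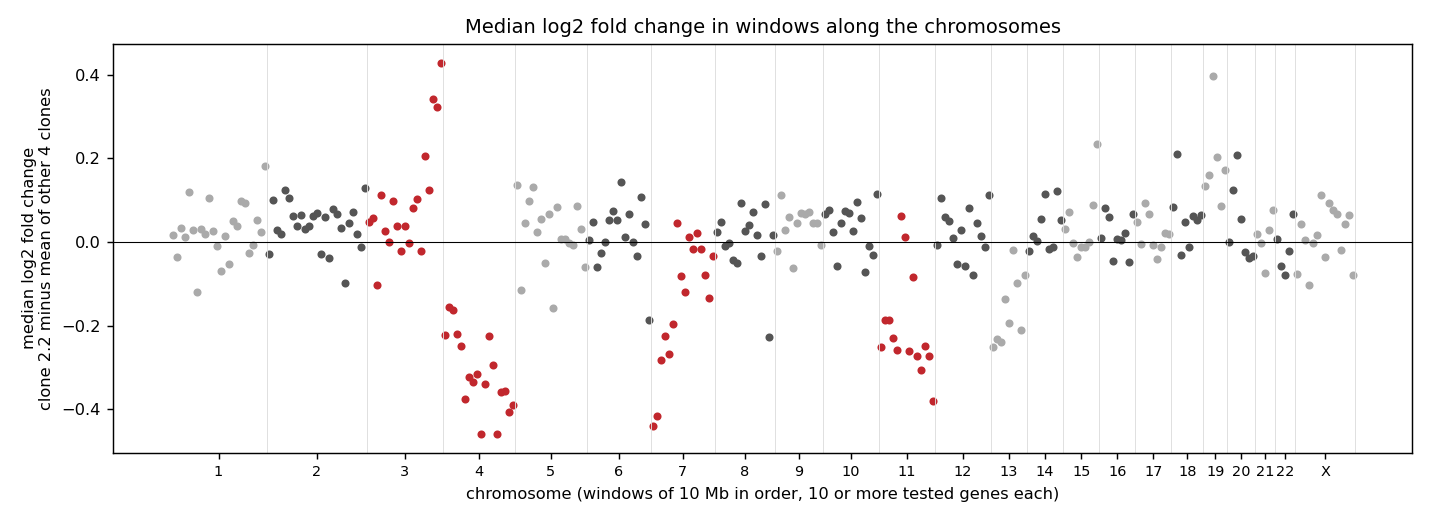
Median log2 fold change, clone 2.2 minus the mean of the other 4 clones, for windows of 10 Mb in order along each chromosome, with 1 point for each window of 10 or more tested genes. Red marks chromosomes 3, 4, 7 and 11, where windows drop to -0.46 (chromosome 4) and rise to 0.43 (the end of chromosome 3), while most others lie near 0.

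Chromosome 4 was lower along its whole length, with a median of -0.32 over 486 genes, 418 of them negative, and 93 called lower (19.1%, against 7.46% of all genes). Relative to the mean of WT, the median gene of the chromosome was at -0.39, -0.37 and -0.41 on the log2 scale in the 3 clone 2.2 libraries. Clone 3.5 shared this, with -0.39 to -0.41, while clones 1.1, 3.2 and 3.6 lay between -0.03 and 0.05. SPATA18, SEL1L3 and SPON2 lie on this chromosome. The first 60 Mb of chromosome 7, which hold TWIST1 and TNS3, had a median of -0.34 over 226 genes, with 43 called lower (19%, against 7.46%). The rest of the chromosome had a median of -0.03 over 461 genes. In those first 60 Mb each clone 2.2 library was at -0.33 relative to WT, clone 1.1 was at -0.14 to -0.17, and clones 3.2, 3.5 and 3.6 were at 0.03 to 0.07.

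A pair of stretches of chromosome 11 were lower on either side of a stretch that was not. The first 50 Mb had a median of -0.23 over 244 genes and the part from 70 Mb on a median of -0.26 over 293 genes, whereas the 201 genes between 60 and 70 Mb had a median of 0.01. The end of chromosome 3 went the other way: from 170 Mb on, 110 of 128 genes were positive, with a median of 0.35 and 21 called higher (16.4%, against 4.14%), and the first 170 Mb had a median of 0.05. Clone 2.2 libraries were at 0.29, 0.30 and 0.32 relative to WT in that end segment, and libraries of the other 4 clones were at -0.07 to -0.01. CLDN11 lies in it, but its fold change was far beyond that of its neighbours. Between 20 and 30 Mb on chromosome 19, a stretch rich in zinc finger genes, 14 of 43 genes were called higher (32.6%, against 4.14%) with a median of 0.40. There clone 2.2 was at the WT level (0.01, 0.05 and 0.02), and clone 3.6 was at -0.57 to -0.66 and clone 1.1 at -0.29 to -0.32.

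Together the 5 blocks on chromosomes 3, 4, 7 and 11 held 10.0% of the genes tested and 21.6% of those called lower. Outside them, 519 genes were called higher and 801 lower, and 130 and 344 stood apart from every other clone.

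**Figure D5:**
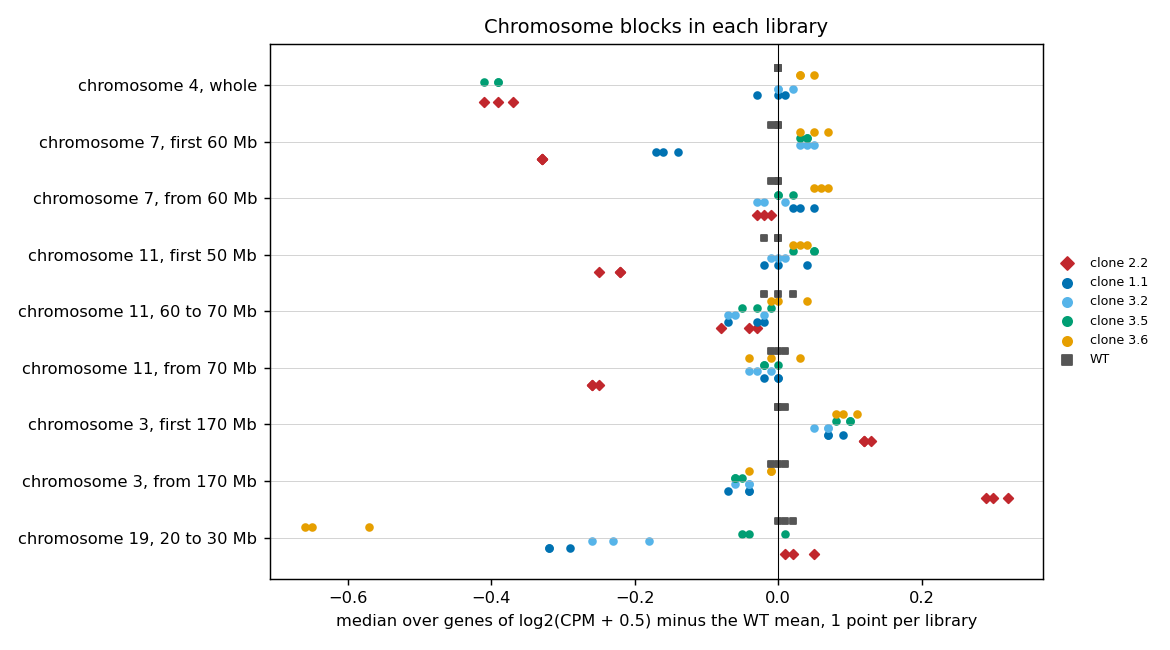
Median over the genes of each chromosome block of log2(CPM + 0.5) minus the mean of WT, with 1 point for each library, coloured by clone and WT. Clone 2.2 (red diamonds) stands alone on both outer parts of chromosome 11 and at the end of chromosome 3, shares its drop on chromosome 4 with clone 3.5, and lies at the WT level on chromosome 19, where clone 3.6 is lowest.

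TWIST1 ChIP-seq peaks, called by the authors in 1 library of WT MDST8, were set against these genes. Within 3000 bp up- or downstream of the gene's 5′ end, at least 1 peak was found in 67.4% of the 144 higher genes (95% exact Clopper-Pearson interval 59.1 to 74.9%), in 72.2% of the 436 lower genes (67.8 to 76.4%) and in 76.5% of all genes tested (75.7 to 77.2%). Both groups had a smaller share than all genes within this distance. The intervals treat genes as independent, but the genes were picked from 1 contrast and some share a chromosome block. The shares are therefore a description and no test. With peaks of p at most 0.001 the shares were 18.8% (12.7 to 26.1%), 29.8% (25.6 to 34.4%) and 28.3%, so the lower genes were no longer below all genes.

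Within the tighter promoters held by RefSeq (GRCh38.p14), 22 of the 25 genes formed by the 23 above with TWIST1 and SPON2 had a match (MUC15, MYL9 and TWIST1 had none), and a peak overlapped the promoter of 3 of them, EDN1, PDZRN3 and SPATA18. They are shown because they are the named genes of clone 2.2 whose promoter lies under a WT peak: 250 bases before the start and 30 from it on, with the TWIST1 E-box CATCTG, searched on both strands, in capitals. EDN1 has 2 such windows for different starts, chr6:12289764-12290043 (plus strand, peak 12289760 to 12289987) and chr6:12290111-12290390 (plus strand, peak 12290354 to 12290681). The window of PDZRN3 is chr3:73624912-73625191 (minus strand, peak 73624741 to 73624991) and that of SPATA18 chr4:52051054-52051333 (plus strand, peak 52051174 to 52051450).
EDN1, first window: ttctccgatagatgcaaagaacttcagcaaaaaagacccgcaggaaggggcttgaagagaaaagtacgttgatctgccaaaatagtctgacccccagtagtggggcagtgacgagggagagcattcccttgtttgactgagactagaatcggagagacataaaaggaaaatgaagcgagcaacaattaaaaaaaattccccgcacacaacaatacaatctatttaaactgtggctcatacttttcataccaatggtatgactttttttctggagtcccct
EDN1, second window: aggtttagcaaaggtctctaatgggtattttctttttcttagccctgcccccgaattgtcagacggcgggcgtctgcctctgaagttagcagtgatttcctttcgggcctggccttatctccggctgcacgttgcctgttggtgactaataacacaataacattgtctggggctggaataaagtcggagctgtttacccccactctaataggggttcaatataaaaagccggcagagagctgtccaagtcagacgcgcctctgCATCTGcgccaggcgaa
PDZRN3: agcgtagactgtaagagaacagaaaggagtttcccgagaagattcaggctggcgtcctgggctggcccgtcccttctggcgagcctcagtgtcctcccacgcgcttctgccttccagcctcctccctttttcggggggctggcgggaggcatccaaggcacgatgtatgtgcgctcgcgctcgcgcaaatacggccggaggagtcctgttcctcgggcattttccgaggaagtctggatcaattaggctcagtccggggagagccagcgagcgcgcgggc
SPATA18: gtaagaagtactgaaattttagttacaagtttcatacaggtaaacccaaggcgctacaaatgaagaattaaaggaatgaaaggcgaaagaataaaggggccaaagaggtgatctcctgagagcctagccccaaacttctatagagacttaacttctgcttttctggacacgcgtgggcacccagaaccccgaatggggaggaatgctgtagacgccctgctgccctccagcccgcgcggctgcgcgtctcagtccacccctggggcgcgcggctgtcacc
The MACS2 p-value was 0.0017 for the peak in the first EDN1 window, 0.01 for that in the second, 0.0017 for that of PDZRN3 and 0.0014 for that of SPATA18. The second EDN1 window holds 1 CATCTG, inside its peak, and the other 3 windows hold none. Over all 35116 RefSeq promoters of 300 bases, 14.7% hold the motif on either strand and 17.2% overlap a peak, so such a match is common.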

How the data were processed

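RNA-seq was made from polyA RNA of 18 MDST8 samples, and the TWIST1 ChIP-seq peak list from 1 sample of WT MDST8. The authors trimmed reads (Trim Galore 0.6.6), aligned them to hg38 (HISAT2 2.1.0), and deposited a count of fragments per gene (featureCounts 2.0.0, GENCODE genes) without normalization. Libraries were directional but, per the file headers, counting ignored strand, so overlapping and antisense genes cannot be separated. Peaks came from Bowtie2 2.4.5 and MACS2 2.2.7.1 with p under 0.05, and the authors deposited their p-values as -log10. Other deposited values (peak scores, fold or signal values, q-values) and the LoVo samples were not used here.

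Of 62703 genes, 13706 had a geometric mean of RPM + 1, minus 1, of at least 1. Counts of the 18 libraries were normalized by TMM and fitted together in edgeR 4.0.16 (quasi-likelihood, Benjamini-Hochberg). The replicate letters did not pair the libraries. CPM uses the TMM library sizes, and SE is the log2 fold change divided by the square root of F. On simulated counts of 13706 genes for this contrast, 98% of 100 genes changed by log2 1 were recovered, 100% at log2 2, and 6 unchanged genes were called. The simulated libraries held no differences among the other clones or WT. These figures therefore cover the spread between libraries only and do not measure calls that arise from differences between clones. Intervals and floors cover counting error only. Genes named were TWIST1, SPON2 and TNS1, the 12 largest protein-coding changes each way at 5 CPM or more that stood apart from every clone, up to 4 called members of each list, and up to 2 genes of each block. Other members and genes named, and the blocks, were picked after their values were seen. Members and lists were chosen with earlier results of these data known. Values of some genes that this rule names are not reported here.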

Additional observations from a re-analysis of the deposited data

Results flagged for a closer look

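The difference between clone 2.2 and the other clones ran in opposite directions from WT for 31 of the 167 named genes, with every clone 2.2 library on one side of all 3 WT libraries and all 12 libraries of the other clones on the other. The difference itself was tested by the edgeR contrast: 29 of the 31 were called and are given here. Clone 2.2 was above WT, and the other clones were below it, for CLDN11 (6.98), HACD4 (6.52), GIMAP4 (5.07), MYL9 (4.80), PTPRN (4.29), TMPRSS15 (3.63), CLEC11A (3.28), H2AJ (2.88), TAGLN (2.17), THBS1 (2.11), EGF (1.94), PCDHGB2 (1.66), SERPINE2 (1.44), NRG1 (1.13), SLC2A1 (0.82) and STC2 (0.80), each value being the log2 fold change of clone 2.2 against the mean of the other 4 clones. The reverse held for B3GAT1 (-7.05), ASB9 (-5.85), SHROOM4 (-5.45), ANO3 (-4.81), LSAMP (-4.48), XYLT1 (-4.35), SCN4B (-3.64), SEMA6B (-2.24), EFNB3 (-1.29) and TNS3 (-1.12). SYK (at least 49.1-fold), MUC15 (at least 33.5-fold) and NACAD (at least 23.3-fold) had no counts in clone 2.2 and were below WT there while the other clones were above it. The genes were named partly for the size of this difference, so how many of them meet the rule is no evidence by itself. The same arrangement held for 47 of the 567 genes called higher (8.29%) and 110 of the 1022 called lower (10.8%). It was not counted over all genes tested. Groups of 3 libraries were too small to look for outlying libraries.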

How the results depend on the processing

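The 567 genes called higher and 1022 called lower became 558 and 1014 with DESeq2, 566 and 1020 with limma-voom, and 517 and 1060 with limma on log2(count + 1). Testing against the log2 threshold of 0.58 itself (edgeR TREAT) left 297 and 558. Without a filter (36578 genes) 1220 were called higher, and 585 and 804 stood apart from every other clone. With filterByExpr (16722 genes) 944 were called higher, and 313 and 720 stood apart; more genes were tested in both. On log2(RPM + 1), 281 lower genes stood apart. Requiring a log2 fold change beyond 1 against each clone left 44 and 194. Without clone 3.5, 353 and 751 stood apart. The clone as the unit left 4 higher and 14 lower. Outside the 5 chromosome blocks, an alternative added after the data were seen, 519 and 801 were called, and 130 and 344 stood apart.

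Leaving out 1 library at a time gave 563 to 585 genes higher, 1008 to 1030 lower, and 141 to 159 and 426 to 466 apart. Same-lettered libraries did not deviate together (correlations from -0.131 to 0.108, and 4 of 18 libraries correlated best with their own letter), and with the replicate block 569 genes were called higher and 1021 lower. Of 4061 values of 131 named genes over all settings (the called ones and TWIST1), 3850 kept direction and call, 202 lost the call (113 of them with the clone as the unit), 7 gained it (all of TWIST1, which fell just short of the size for a call) and 2 reversed: without clone 3.6, ID3 was at -0.084 and S1PR3 at -0.15. The cause of these changes was not tested.

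The share of genes with a peak was 53.4% of all genes, 45.1% of those higher and 48.4% of those lower within 1000 bp, and 86.3%, 80.6% and 81.2% within 5000 bp. With peaks of p at most 0.001 it was 28.3%, 18.8% and 29.8%. Genes under about 1 CPM rest on few counts, and fold changes against clones at 0 depend on the prior count.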
